A study of Mus musculus with 4 samples.

Results

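Axon injury and regeneration genes were examined in the lumbar spinal cord of WT mice and of ALS (G93A) transgenic mice treated with spermidine (SD) or vehicle. They are 10 genes chosen by name (Atf3, Jun, Sox11, Gadd45a, Gap43, Sprr1a, Nrn1, Gal, Vgf and Ecel1) out of 18674 gene names in the RNA-seq table, and each of the 10 was found on 1 row. All animals received SD or PBS for 30 days, 4 times per week, and were killed when 100 days old; the methods give an SD dose of 5 mg/kg by I.P. injection. G93A mice carry a mutant human SOD1 transgene in addition to their own Sod1 and came from the G93A H1 high-expresser strain, whereas WT mice carry no transgene. According to the methods, only males were used in the treatment studies. Each combination of genotype and treatment had 1 library, and how many animals went into a library is not given in the sources used here. No condition has a replicate, so each comparison is between single libraries and is given without a p-value. A fit of genotype over all 4 libraries, which would leave few residual degrees of freedom, was not run. Where 4 values follow each other, their order is WT with vehicle, WT with SD, G93A with vehicle and G93A with SD. Values are RPKM (reads scaled to transcript length and library size), so levels can be compared between genes as well as between libraries. The 10 genes lie apart in the genome (GRCm38): Atf3 and Ecel1 (87147655 to 87156521, minus strand, 18 exons) on chromosome 1, and each of the others on a chromosome of its own. Estimated depth was between about 36817500 and 38613000 read pairs per library.

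When an axon of a peripheral or motor neuron is cut or dies back, the cell body switches on a set of genes known as the regeneration program. Transcription factors such as ATF3, JUN and SOX11 start it, proteins of the growth cone such as GAP43 and SPRR1A carry it out, and neuropeptides such as galanin are made in larger amounts. In intact adult motor neurons ATF3 and SPRR1A are nearly absent, and ATF3 is widely used as a marker of axotomized neurons. Several of these genes, JUN and GADD45A among them, also answer to stress in glia and immune cells. In RNA from a whole piece of cord, the number of cells that make a transcript and the amount per cell cannot be told apart.

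In G93A vehicle against WT vehicle, 5 of the 10 genes (Atf3, Sprr1a, Gadd45a, Jun and Sox11) were at least 1.5-fold higher, while 20.3% of all 18674 names were. Only Nrn1 among the 10 was at least 1.5-fold lower, against 10.3% of all names. In G93A + SD against WT + SD, 7 of the 10 were at least 1.5-fold higher, against 23.2% of all names, since Gap43 and Ecel1 joined the other 5. Nrn1 was again the only one that was at least 1.5-fold lower, against 12.5% of all names. Among the 12987 names with a mean of 1 RPKM or more, 13.5% were higher and 4.68% lower in the vehicle pair, and 16.3% higher and 8.12% lower in the SD pair. These comparisons share no library. Gal and Vgf stayed within 1.5-fold in both. The median log2 fold change of the 10 genes was 0.62 in the vehicle pair and 0.83 in the SD pair, against 0.05 and 0.05 over 12982 names (mean of 1 RPKM or more, no value of 0). The plot of RPKM by library shows every member in every library.

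**Figure D1:**
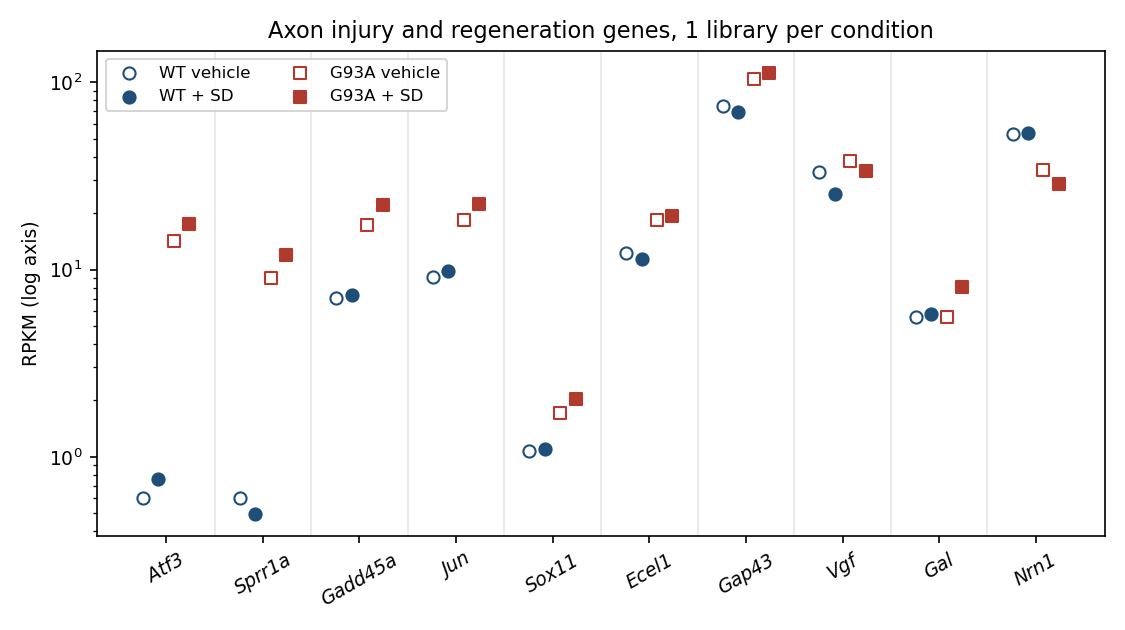
RPKM (log axis) of the 10 axon injury and regeneration genes in 4 libraries, 1 point per library. Circles are WT and squares are G93A, open for vehicle and filled for SD; genes are ordered by their fold change in the vehicle pair. Atf3 and Sprr1a lie below 1 RPKM in both WT libraries and at 9.01 to 17.5 RPKM in both G93A libraries, whereas Nrn1 is lower in G93A and Gal overlaps.

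Among the transcription factors, Atf3 moved most. Atf3, a stress-induced bZIP factor, had 0.606 RPKM in WT vehicle, 0.760 RPKM in WT + SD, 14.2 RPKM in G93A vehicle and 17.5 RPKM in G93A + SD. Both WT libraries were below 1 RPKM and the G93A libraries did not come near them. The level was 23.4-fold higher in the vehicle pair and 23.1-fold higher in the SD pair. By log2 fold change Atf3 stood at place 36 from the top of the 12982 names in the vehicle pair and at place 51 in the SD pair. Behind the WT values are an estimated 44.3 and 57.7 read pairs, and behind the G93A values 1069 and 1343. Atf3 lies on chromosome 1 of GRCm38 (191170296 to 191218039, minus strand) with 4 exons in the listed transcript, and none of its stretches of read length (53 bases) occurs in a transcript of another gene.

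Jun, the AP-1 subunit that partners ATF3 in injured neurons, had 9.15 RPKM in WT vehicle, 9.87 RPKM in WT + SD, 18.4 RPKM in G93A vehicle and 22.3 RPKM in G93A + SD. Its libraries did not overlap between genotypes, and the level was 2.01-fold higher in the vehicle pair and 2.26-fold higher in the SD pair. In contrast to Atf3, Jun was thus well expressed in WT cord. Jun (chromosome 4, 95049034 to 95052222, minus strand, 1 exon) shares 5.74% of its 53-base windows with Junos, an antisense RNA gene on the opposite strand, and reads of the pair cannot be told apart where the strand is not recorded. Sox11, a factor of immature and regenerating neurons, was the lowest member in G93A, with 1.08 RPKM in WT vehicle, 1.10 RPKM in WT + SD, 1.71 RPKM in G93A vehicle and 2.04 RPKM in G93A + SD. It was 1.59-fold higher in the vehicle pair and 1.86-fold higher in the SD pair, and a pseudocount of 1 RPKM takes both below 1.5-fold. The single exon of Sox11 (chromosome 12, 27334264 to 27342574, minus strand) is long (8311 bases), so that these low levels still rest on an estimated 329 to 654 read pairs.

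Gadd45a, a stress sensor that acts in growth arrest and DNA demethylation, had 7.03 RPKM in WT vehicle, 7.29 RPKM in WT + SD, 17.3 RPKM in G93A vehicle and 22.3 RPKM in G93A + SD. The WT libraries agreed within 1.04-fold, and both G93A libraries were above them, by 2.46-fold in the vehicle pair and by 3.05-fold in the SD pair. Of its 53-base windows, 15.9% also occur in E230016M11Rik, a noncoding transcript on the opposite strand of chromosome 6 (Gadd45a: 67035096 to 67037457, minus strand, 4 exons), which leaves that share of its reads open to doubt. The paralogs Gadd45b and Gadd45g showed values of the same kind. Gadd45b had 4.19 and 4.58 RPKM in WT vehicle and WT + SD and 10.9 and 13.8 RPKM in G93A vehicle and G93A + SD. Gadd45g had 6.33, 5.18, 15.6 and 14.5 RPKM in the same order.

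Of the genes that act in the growing axon, Sprr1a changed from near absence. SPRR1A is a small proline-rich protein of the cornified envelope of skin that injured neurons also make and that promotes axon outgrowth. Sprr1a had 0.602 RPKM in WT vehicle, 0.496 RPKM in WT + SD, 9.01 RPKM in G93A vehicle and 11.9 RPKM in G93A + SD. This was 15.0-fold higher in the vehicle pair and 24.0-fold higher in the SD pair, at places 55 and 49 from the top of the 12982 names. The WT values are the thinnest of the 10 genes, with an estimated 17.9 and 15.3 read pairs, which makes the size of these folds imprecise. With a pseudocount of 1 RPKM the log2 fold changes of Sprr1a were 2.64 and 3.11 in place of 3.90 and 4.58, and those of Atf3 were 3.24 and 3.40 in place of 4.55 and 4.53. Sprr1a lies on chromosome 3 (92483952 to 92485895, minus strand, 2 exons) and shares no 53-base window with other genes. Of 6 epidermal keratinocyte markers, Krt5, Krt14 and Ivl were listed at 0 in at least 1 library, and the list summed to 4.51, 3.62, 3.98 and 3.70 RPKM.

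Gap43, the classic protein of growth cones, was the most abundant of the 10 genes in every library. Its level was 74.5 RPKM in WT vehicle, 69.1 RPKM in WT + SD, 104 RPKM in G93A vehicle and 112 RPKM in G93A + SD. The genotypes did not overlap, but the rise was only 1.40-fold in the vehicle pair and 1.63-fold in the SD pair. Nrn1, which encodes neuritin, a membrane-anchored protein induced by activity that promotes neurite and synapse growth, went the other way. Its level was 52.9 RPKM in WT vehicle, 53.3 RPKM in WT + SD, 34 RPKM in G93A vehicle and 28.7 RPKM in G93A + SD. This was 1.56-fold lower in G93A in the vehicle pair and 1.86-fold lower in the SD pair, and Nrn1 stood at places 435 and 350 from the bottom of the 12982 names. Gap43 lies on chromosome 16 (42248442 to 42340651, minus strand, 3 exons). Nrn1 on chromosome 13 (36725361 to 36735131, minus strand, 3 exons) overlaps Fars2 on the opposite strand and shares 28.8% of its 53-base windows with it. Fars2 had means over its 2 rows of 3.84, 4.01, 5.21 and 5.38 RPKM, and the part of shared reads in the Nrn1 values was not tested.

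The secreted peptides moved little. Gal, which encodes galanin, a neuropeptide strongly induced in axotomized neurons, had 5.60 RPKM in WT vehicle, 5.78 RPKM in WT + SD, 5.57 RPKM in G93A vehicle and 8.02 RPKM in G93A + SD. G93A vehicle was the lowest of the 4 libraries and G93A + SD the highest, so that the genotypes overlap. Gal lies on chromosome 19 (3409915 to 3414544, minus strand, 6 exons) and Vgf on chromosome 5 (137026392 to 137033351, plus strand, 2 exons). Of the 3 galanin receptors, 1 was at least 1.5-fold higher and 1 lower in the vehicle pair, against 20.3% and 10.3% of all names. In the SD pair 1 was higher and 0 lower, against 23.2% and 12.5%. The higher one was Galr3, with 0.0952, 0.0820, 1.0 and 1.2 RPKM, and the lower one was Galr2, with 0.445, 0.225, 0.188 and 0.333 RPKM. Galr1 passed in neither pair, with 0.80, 0.973, 0.593 and 0.842 RPKM. Vgf, a neurotrophin-induced gene for a precursor of secreted peptides, had 33.3 RPKM in WT vehicle, 25.4 RPKM in WT + SD, 37.8 RPKM in G93A vehicle and 33.7 RPKM in G93A + SD. The lower G93A library exceeded the higher WT library by only 1.01-fold, less than the 1.31-fold between the WT libraries. Ecel1, an endothelin-converting enzyme-like protease induced by nerve injury and also known as DINE, had 12.3 RPKM in WT vehicle, 11.4 RPKM in WT + SD, 18.3 RPKM in G93A vehicle and 19.3 RPKM in G93A + SD. With 1.49-fold in the vehicle pair it lay just under the threshold, and it passed with 1.70-fold in the SD pair. The related proteases Ece1 and Ece2 stayed within 1.5-fold in both pairs.

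The genotype difference was also set against the differences within a genotype, which come from libraries of different treatment and are therefore not replicates. Both G93A libraries were above both WT libraries for 8 of the 10 genes, against 39.7% of all names, and below for 1 (Nrn1), against 28.0%. Vgf is among these 8 by a gap of only 1.01-fold. Median-ratio scaling divides WT vehicle by 0.977 and G93A + SD by 1.03, and with it the Vgf libraries overlap. A stricter rule asked that the smallest fold between the genotypes be larger than the largest fold within a genotype. It was met upwards by 7 genes (Atf3, Jun, Sprr1a, Gap43, Gadd45a, Sox11 and Ecel1), against 25.3% of all names, and downwards by Nrn1, against 16.7%. For Gap43 the smallest fold between genotypes was 1.40 and the largest within a genotype was 1.08, and for Ecel1 these values were 1.49 and 1.08. Gal and Vgf did not meet it.

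**Figure D2:**
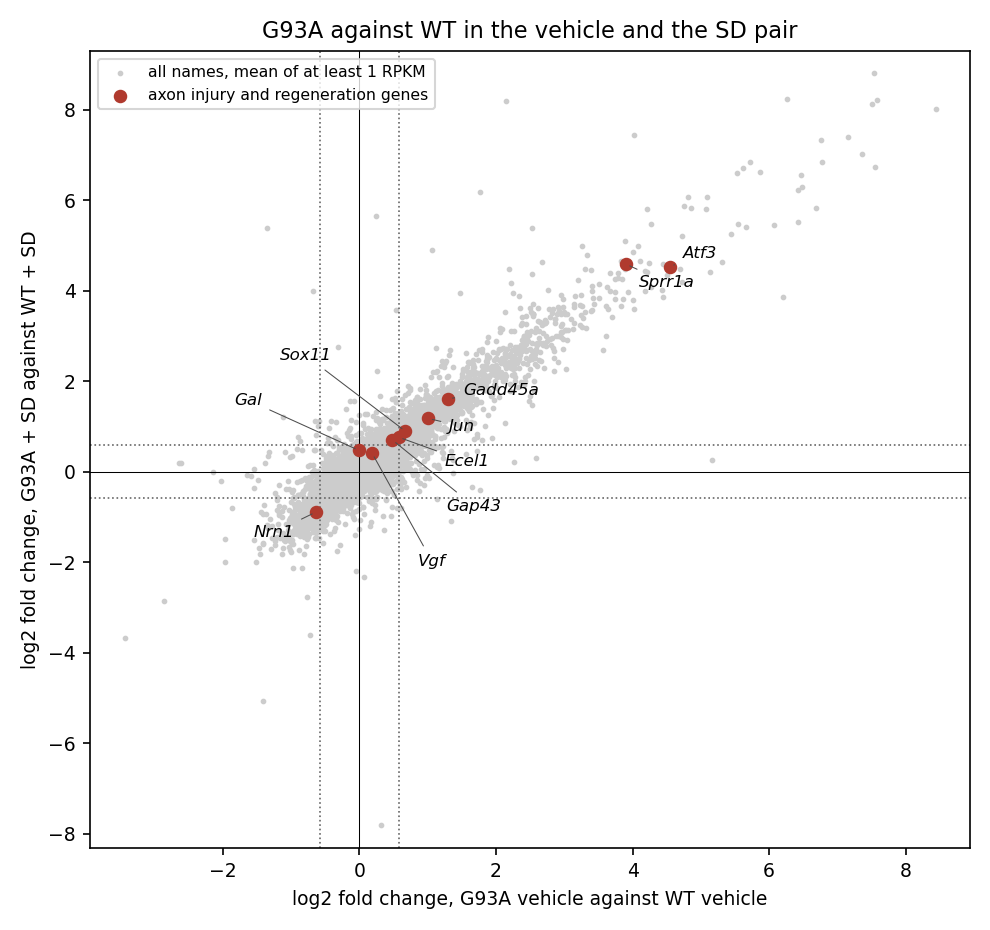
Log2 fold change of G93A against WT in the vehicle pair (x axis) and in the SD pair (y axis), without pseudocount. Red points are the 10 axon injury and regeneration genes, grey points the names with a mean of at least 1 RPKM and no value of 0, and dotted lines mark 1.5-fold. Atf3 (4.55 and 4.53) and Sprr1a (3.90 and 4.58) lie far from the other 8 genes, and Nrn1 is the only one in the lower left corner.

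The order of the levels changed with genotype. In WT vehicle it ran Gap43, Nrn1, Vgf, Ecel1, Jun, Gadd45a, Gal, Sox11, Atf3 and Sprr1a, and it was the same in WT + SD. In G93A vehicle Vgf stood above Nrn1, and Atf3 and Sprr1a had passed Gal and Sox11. Atf3 and Sprr1a in WT vehicle differed by 1.01-fold, as did Jun and Ecel1 in G93A vehicle, so that these neighbours cannot be ranked.

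Since Atf3 and Jun rose together, the promoters were searched for the sites that AP-1 and ATF dimers are known to bind. Windows of 300 bases (250 before and 50 after the start site, RefSeq, GRCm38.p6) were at hand for 7 of the 10 genes. The motifs were TGACTCA (AP-1), TGACGTCA (CRE), TGACATCA and TTACGTCA, each on both strands. No match overlaps another in these windows. The last 2 motifs were added after the promoters had been read, with their letters taken from them, so that their matches are no finding. Among 32851 promoters of this length, 5.20% hold TGACTCA, 1.79% TGACGTCA, 3.62% TGACATCA and 0.499% TTACGTCA. The 4 windows with a match are shown 5′ to 3′ along the gene, with the matches in capitals.
Atf3 (chr1:191183284-191183583, minus strand): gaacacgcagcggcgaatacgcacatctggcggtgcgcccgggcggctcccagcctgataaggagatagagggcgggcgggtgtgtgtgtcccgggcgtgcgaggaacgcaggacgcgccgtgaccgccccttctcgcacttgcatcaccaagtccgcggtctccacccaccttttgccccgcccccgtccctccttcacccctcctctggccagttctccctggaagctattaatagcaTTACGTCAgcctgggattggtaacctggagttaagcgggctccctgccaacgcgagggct
Jun (chr4:95052173-95052472, minus strand): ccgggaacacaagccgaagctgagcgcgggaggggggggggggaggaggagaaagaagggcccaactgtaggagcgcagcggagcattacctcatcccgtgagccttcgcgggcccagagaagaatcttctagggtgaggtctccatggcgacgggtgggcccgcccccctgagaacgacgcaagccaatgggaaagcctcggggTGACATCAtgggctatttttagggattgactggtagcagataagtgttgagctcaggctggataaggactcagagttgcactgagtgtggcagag
Sprr1a (chr3:92485832-92486131, minus strand): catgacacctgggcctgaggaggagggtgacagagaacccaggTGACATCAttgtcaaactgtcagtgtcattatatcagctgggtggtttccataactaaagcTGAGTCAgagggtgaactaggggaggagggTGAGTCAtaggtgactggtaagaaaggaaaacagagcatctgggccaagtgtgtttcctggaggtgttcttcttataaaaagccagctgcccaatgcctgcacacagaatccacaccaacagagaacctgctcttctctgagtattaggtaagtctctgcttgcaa
Sox11 (chr12:27342669-27342968, minus strand): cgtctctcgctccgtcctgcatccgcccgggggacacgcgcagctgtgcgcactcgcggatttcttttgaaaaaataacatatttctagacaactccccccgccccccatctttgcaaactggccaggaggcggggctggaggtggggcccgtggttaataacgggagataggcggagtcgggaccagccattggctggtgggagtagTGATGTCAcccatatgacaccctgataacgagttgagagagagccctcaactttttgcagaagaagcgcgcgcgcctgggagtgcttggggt

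The Sprr1a window holds the AP-1 letters 2 times, both as TGAGTCA on the strand shown, beginning 146 and 116 bases before the start site, and TGACATCA 207 bases before it. Of all promoters, 0.222% hold TGACTCA 2 or more times. Jun holds TGACATCA 45 bases before its start site, and Sox11 holds it on the other strand (TGATGTCA) 42 bases before. In Atf3, TTACGTCA begins 10 bases before the start site. The Atf3 window lies inside the gene span given above (191170296 to 191218039, minus strand), so the upstream end of that span was not searched. The windows of Gal, Gadd45a and Ecel1 hold none of the 4 motifs. Binding was not measured here.

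**Figure D3:**
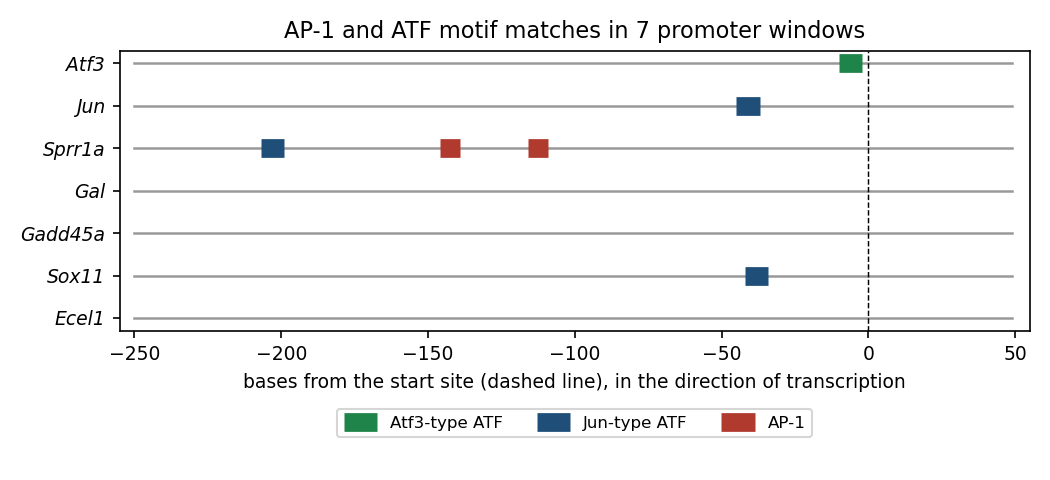
Positions of the motif matches in the 7 promoter windows, in bases from the start site (dashed line) along the direction of transcription. Each grey line is 1 window of 300 bases and each block is 1 match to TGACTCA (AP-1, red), TGACATCA (Jun-type ATF, blue) or TTACGTCA (Atf3-type ATF, green). Sprr1a has 3 matches, Atf3, Jun and Sox11 have 1 each, and Gal, Gadd45a and Ecel1 have none; TGACGTCA (CRE) has no match in any of them.

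Against vehicle, SD moved none of the 10 genes by 1.5-fold. In G93A + SD against G93A vehicle, 0 of 10 were at least 1.5-fold higher and 0 lower, against 8.71% and 7.31% of all names. All 10 genes have a mean above 1 RPKM, and among the 12987 names with such a mean only 1.34% and 1.04% passed. Of the 10, 8 had a higher value in G93A + SD by any amount, and the median log2 fold change was 0.26, against 0.0087 over the 12982 names, of which 52.1% were higher. The largest difference was that of Gal (1.44-fold higher in G93A + SD), ahead of Sprr1a (1.32-fold), Gadd45a (1.28-fold), Atf3 (1.24-fold), Jun (1.21-fold) and Sox11 (1.19-fold). Vgf and Nrn1 were lower in G93A + SD, with log2 fold changes of -0.17 and -0.24. In WT + SD against WT vehicle, 0 of 10 genes were at least 1.5-fold higher and 0 lower, against 7.18% and 8.55% of all names and 0.909% and 1.36% of those 12987, so that 0 of 10 is near the background. There 6 genes had a higher and 4 a lower value, with a median log2 fold change of 0.02, against 0.01 over the 12982 names. The largest differences between the WT libraries were those of Vgf, with a log2 fold change of -0.39, and Atf3, with 0.33. With 1 library per condition, the spread between animals that these differences would have to exceed is unknown.

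**Figure D4:**
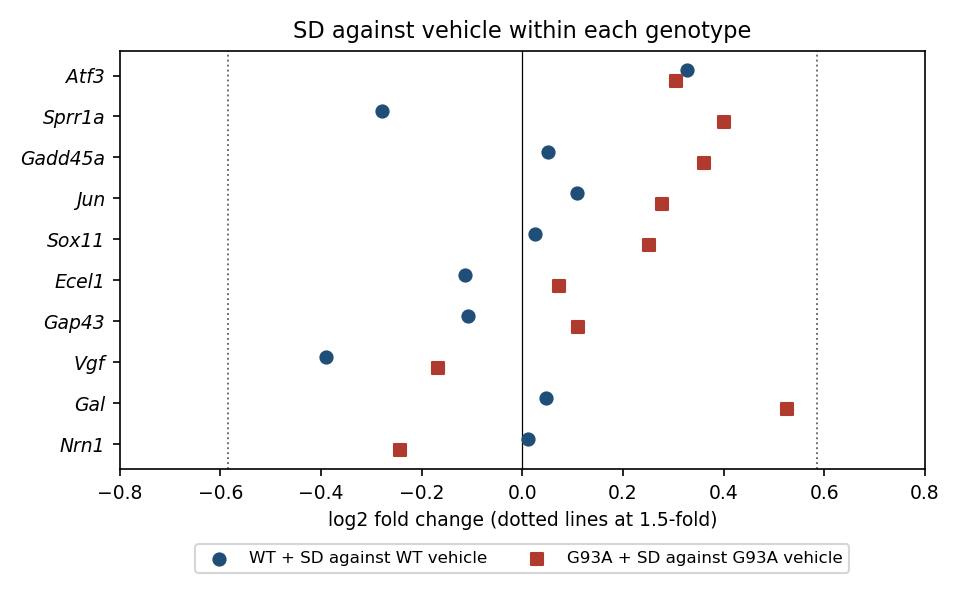
Log2 fold change of SD against vehicle for each of the 10 genes, in WT (blue circles) and in G93A (red squares), with dotted lines at 1.5-fold. All points lie inside the lines; the red squares are right of 0 for 8 genes, with Gal farthest at 0.53.

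Summed levels of cell type markers differed between genotypes and between treatments, and their part in the results was not tested. Of all names, 20.3% were at least 1.5-fold higher and 10.3% lower in the vehicle pair, and 23.2% higher and 12.5% lower in the SD pair. Between genotypes, the summed level of 8 microglia markers was 82.4 and 74.2 RPKM in WT against 406 and 427 RPKM in G93A. Of these 8 markers, 7 were at least 1.5-fold higher in both pairs. The 6 astrocyte markers summed to 990 and 929 RPKM in WT and to 3066 and 3639 RPKM in G93A, with 4 of 6 at least 1.5-fold higher in the vehicle pair and 5 in the SD pair. Beside the rise of Atf3 and Sprr1a, 4 of 8 motor neuron markers were at least 1.5-fold lower in the vehicle pair and 5 in the SD pair. Their sum was 424, 403, 236 and 159 RPKM, of which Nefh alone made up 327, 313, 160 and 99.2 RPKM, and Isl1 was slightly higher in G93A in both pairs. Chat went from 9.83 to 6.55 RPKM in the vehicle pair and from 8.57 to 4.33 RPKM in the SD pair. In G93A + SD against G93A vehicle, 8 of the 10 genes were slightly higher. The motor neuron sum was lower there, with 2 of 8 markers at least 1.5-fold lower (7.31% of all names) and 2 higher by any amount. The microglia and astrocyte sums were higher, but 0 of 8 and 0 of 6 markers were at least 1.5-fold higher (8.71% of all names). Of the microglia markers, 2 were lower by any amount. Dorsal root ganglion neurons also express Gap43 and Gal, and 6 of their markers summed to 0.730, 0.834, 1.03 and 1.47 RPKM, highest in G93A + SD, where Gap43 and Gal were highest too. Between genotypes, Avil was 4.51-fold and 5.33-fold higher in G93A and carried the rise of the sum. P2rx3, with 0.578, 0.636, 0.387 and 0.585 RPKM, was not higher in G93A than in WT in either pair. In G93A + SD against G93A vehicle, however, P2rx3 was 1.51-fold and Avil 1.40-fold higher, while of the 6 markers 3 were higher and 3 lower by any amount. Scn11a was below 0.1 RPKM, and Scn10a, Trpv1 and Prdm12 were listed at 0 in at least 1 library.

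Other genes of the injury response were then counted from 7 lists, whose counts stand against the 20.3% (vehicle pair) and 23.2% (SD pair) of all names that were higher and the 10.3% and 12.5% that were lower. Of 12 AP-1 and ATF factors, which can dimerize with JUN or ATF3 or resemble them, 8 were at least 1.5-fold higher in the vehicle pair, 7 in the SD pair and none lower, with median log2 fold changes (pseudocount of 0.1 RPKM) of 0.89 and 1.15. Among those with a mean of at least 1 RPKM, Maff (0.920, 1.11, 5.30 and 6.31 RPKM), Fos (5.78, 8.37, 23.4 and 30.3 RPKM) and Junb (2.28, 2.55, 8.27 and 9.38 RPKM) differed most, whereas Jund and Atf2 stayed within 1.5-fold. Of 12 other transcription regulators, 8 and 7 were higher and none lower (medians of 0.995 and 1.02), led by Socs3, a feedback inhibitor of cytokine signalling, with 0.424, 0.328, 6.82 and 9.47 RPKM. Cebpd (0.608, 0.518, 8.35 and 10.1 RPKM) and Cebpb (0.926, 0.732, 3.35 and 3.71 RPKM) came next. Of 18 surface and secreted proteins, 11 were at least 1.5-fold higher in both pairs (medians of 1.22 and 1.38), led by Plaur, the urokinase receptor (0.124, 0.222, 2.67 and 3.61 RPKM), Cd44 (3.60, 3.65, 27.8 and 40.5 RPKM) and Lgals1 (24.8, 22.1, 95.0 and 101 RPKM).

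Of 12 cytoskeleton and growth cone genes, 3 were at least 1.5-fold higher and 0 lower in both pairs, with median log2 fold changes (pseudocount of 0.1 RPKM) of -0.02 and 0.02. This count lies near the 20.3% and 23.2% of all names that were higher. The 3 were Hspb1, a small heat shock protein (7.32, 6.08, 56.8 and 91.1 RPKM), Marcks (28.9, 26.8, 48.5 and 61.6 RPKM) and Tubb2b (46.0, 42.1, 70.3 and 75.7 RPKM). Of 9 other neuropeptide genes, 1 was higher and 1 lower in the vehicle pair and 2 were higher and 1 lower in the SD pair (medians of -0.02 and 0.05). Crh was higher in both pairs, Adcyap1 only in the SD pair, and the lower gene was Cck in the vehicle pair and Nppb in the SD pair. Crh had 0.463, 0.597, 2.12 and 2.04 RPKM, Adcyap1 (PACAP) 12.9, 12.1, 17.6 and 20.8 RPKM and Cck 19.4, 17.8, 11.9 and 14.2 RPKM. Of 8 paralogs in the table, Gadd45b, Gadd45g and Sox4 (1.78, 1.82, 3.58 and 4.59 RPKM) were at least 1.5-fold higher in both pairs (list medians of 0.19 and 0.33), while Basp1, a relative of Gap43, had 56.3, 54.1, 47.0 and 51.7 RPKM.

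**Figure D5:**
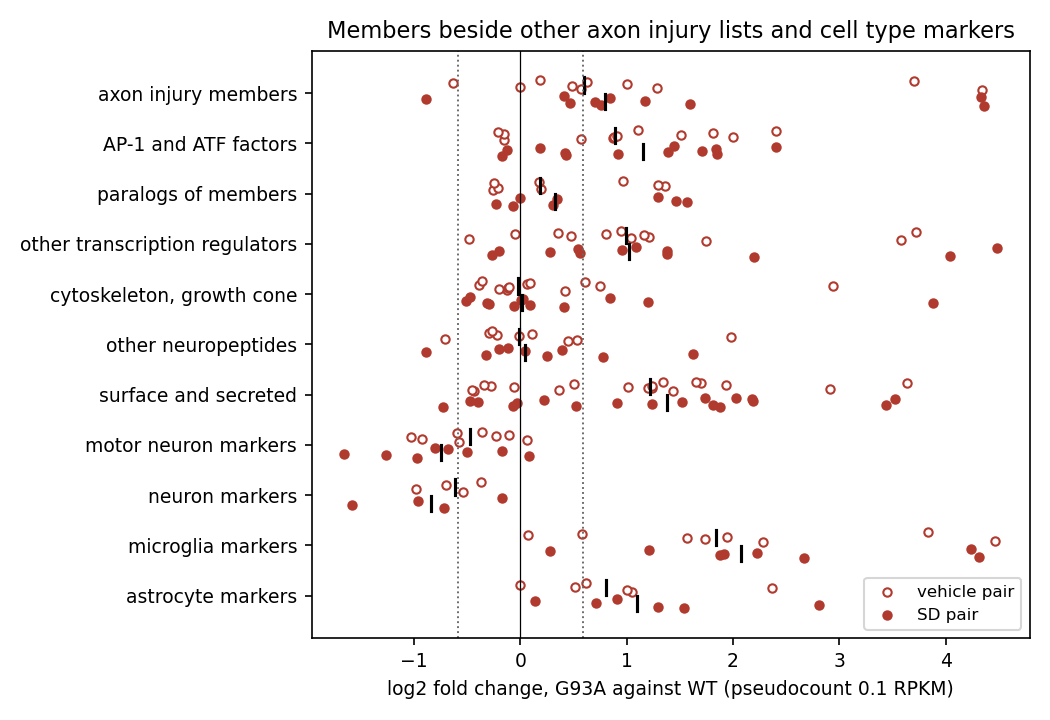
Log2 fold change of G93A against WT (pseudocount of 0.1 RPKM) for each gene of the 10 members, 6 other injury lists and 4 marker lists, in the vehicle pair (open) and the SD pair (filled), with black bars at the list medians and dotted lines at 1.5-fold. The members lie around medians of 0.60 and 0.80, the motor neuron markers left of 0 at -0.47 and -0.74, and the microglia markers right at 1.84 and 2.07.

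To describe which genes resemble Atf3, the distance between log2 profiles over the 4 libraries (pseudocount of 0.1 RPKM, each profile centred on its mean) was taken for 12987 names (mean of 1 RPKM or more). The nearest names were Bcl2a1b (0.12), Lgals3 (0.27), Cd68 (0.28), Atp6v0d2 (0.30) and Mpeg1 (0.31), of which Cd68 is also on the list of microglia markers. Bcl2a1b had 0.668, 0.738, 14.6 and 17.7 RPKM, and belongs to a family of near-identical copies whose reads are hard to assign. Sprr1a was the nearest of the other members at a distance of 0.50, in place 16, ahead of Gadd45a at 2.91 and Jun at 3.27. The 4 points share their libraries with every result above.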

How the data were processed

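Lumbar spinal cord RNA was measured in 4 libraries, 1 per condition, grouped by the sample labels. The authors deposited RPKM values, an inferred unit: the header names none, but length-weighted totals were nearly equal across libraries. Their methods name 53 bp reads, STAR with GRCm38, and HTSeq with Ensembl genes; the table lists RefSeq transcripts (23750 rows), and how its values were made is not given in the sources used here. The authors' own ratio columns were not used. Members and lists were chosen with earlier results of these data known.

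Rows of a name were averaged, and 1.5-fold without pseudocount or filter set the calls; no test was run, since no condition has a replicate. Named were the members, their relatives, the 3 largest genotype differences per injury list (mean of 1 RPKM or more) and the 5 names most like Atf3. Nppb, Jund, Atf2, Chat, Nefh, Isl1, Avil, P2rx3, Fars2 and the genes in the closing section were chosen after their values were seen. Some results on listed genes are not reported here. Read pairs were estimated from the commonest low-value step and transcript length (GENCODE M21, GRCm38). That 1 step is 1 read pair is an assumption: the methods name paired end adaptors but not whether both ends were read. Windows of 53 bases were compared with transcripts of all other genes. Alternatives were median-ratio scaling, pseudocounts of 0.1 and 1 RPKM, a minimum mean of 1 RPKM, a 2-fold threshold and calling a name by any row. Software was Python 3.11.15 with pandas 2.3.3, numpy 2.4.6 and matplotlib 3.10.9, tested on simulated data.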

Additional observations from a re-analysis of the deposited data

Results flagged for a closer look

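Some genes went opposite ways under the same contrast in the vehicle and SD pairs or in WT and G93A, and none of these differences was tested. Each of the fold changes below is under 1.5-fold. For SD against vehicle, the log2 fold change of Sprr1a was -0.28 in WT and 0.40 in G93A, a difference of 0.68. Gap43 had -0.11 in WT and 0.11 in G93A, and Ecel1 had -0.11 in WT and 0.0721 in G93A. Nrn1 had 0.0109 in WT and -0.24 in G93A. For G93A against WT, Gal had -0.0077 under vehicle and 0.47 under SD.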

How the results depend on the processing

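Median-ratio scaling, a pseudocount of 0.1 RPKM, a mean of at least 1 RPKM and counting any row of a name left all counts of members at least 1.5-fold higher or lower as reported. The counts of members without overlap between genotypes, and those under the stricter rule, were not rerun in these settings. A pseudocount of 1 RPKM gave 4 and 6 members higher in G93A (5 and 7 without it), against 8.31% and 10.4% of all names, because Sox11 had log2 fold changes of 0.39 and 0.54. It also lowered the log2 fold changes of Atf3 to 3.24 and 3.40 (from 4.55 and 4.53) and of Sprr1a to 2.64 and 3.11 (from 3.90 and 4.58). With a 2-fold threshold, 4 members (Atf3, Sprr1a, Gadd45a and Jun) were higher in G93A + SD than in WT + SD in place of 7, 4 were higher in the vehicle pair in place of 5, and 0 were lower in either pair, so that Nrn1 is lost; of all names 13.4% and 15.5% were higher in the vehicle and SD pairs. Counts of members for SD against vehicle were 0 in each of these settings. Scaling shifted the genotype comparisons by -0.06 and -0.07 on the log2 scale, and no member changed direction under the scaling or either pseudocount. A fit of genotype with treatment as a block over the 4 libraries was not run. Depth limits Sprr1a in WT most, with an estimated 17.9 and 15.3 read pairs.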

Other observations

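Skeletal muscle genes were nearly absent from the 4 libraries. The 6 muscle markers summed to 0.322, 0.40, 0.438 and 0.589 RPKM, in the order of values used above. Oligodendrocyte markers were lower in G93A by small amounts, with sums of 8614 and 8916 RPKM in WT vehicle and WT + SD and of 7131 and 6587 RPKM in the G93A libraries. Within that list Cldn11, a tight junction protein of myelin, was at least 1.5-fold higher in G93A in both pairs, with 194.8, 216.7, 325.7 and 327.2 RPKM. Of 4 general neuron markers, 2 were at least 1.5-fold lower in the vehicle pair and 3 in the SD pair, against 10.3% and 12.5% of all names. Among them were Nefl with 812, 763, 413 and 254 RPKM and Snap25 with 1268, 1292, 782 and 661 RPKM. Egr2, which was listed as a Schwann cell marker, had 0.116, 0.0829, 1.40 and 1.68 RPKM in the same order. These genes were chosen after their values were seen.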
